A study of Mus musculus with 28 samples.

Results

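Microglia were followed through 9 genes in 28 RNA-seq libraries from 4 brain regions of *Hdc* mutant and wild-type mice. The genes were chosen by name from what is known of these cells, but with earlier results of these data already known. They comprise 6 genes of receptors and other proteins typical of resting microglia (Cx3cr1, P2ry12, Tmem119, Csf1r, Trem2 and Aif1) and the 3 genes of complement component C1q (C1qa, C1qb and C1qc). All 9 were found among the 29878 genes listed, and all 9 passed the filter on low counts, as did 14979 genes in all. *Hdc* encodes the enzyme that makes histamine from histidine, and its knockout has been studied as a model of tics. Male mice of 2 to 3 months, on a C57Bl/6 background, were wild-type (WT), heterozygous for the knockout allele or homozygous for it (KO). There were 2 WT, 3 heterozygous and 2 KO libraries of dorsal striatum, 3, 3 and 2 of ventral striatum, the same numbers of hypothalamus, and 1, 2 and 2 of motor cortex, in that order of genotypes. The allele is present in every cell of the heterozygous and KO mice, and the libraries were made from whole dissected tissue. The design therefore does not separate microglia from other cells. Nothing states that libraries of a group came from separate mice, so p-values measure the spread between libraries, which may be technical.

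Microglia are the resident macrophages of the brain. In the healthy brain they express receptors that sense the surrounding tissue, such as Cx3cr1 for the neuronal chemokine fractalkine and P2ry12 for nucleotides released from nearby cells, and they depend on signals through Csf1r for their survival. They are also the main source of C1q in the brain, the protein that starts the classical complement pathway and that has been found to tag synapses for removal. In tissue RNA, fewer microglia and less RNA of these genes per cell cannot be told apart.

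Counts on genes were between 3536802 and 5150280 per library, and these were 44.78% to 54.22% of the reads tallied. Markers fitted the labelled regions: cortical excitatory neuron markers summed to 2004 to 2185 CPM (counts relative to the size of the library) in the motor cortex and to at most 544 CPM elsewhere, striatal spiny neuron markers to 1285 to 6560 CPM in the striatum and at most 161 CPM elsewhere, and hypothalamic neuron markers to 161 to 268 CPM in the hypothalamus and at most 11.4 CPM elsewhere. A few libraries stood apart in genes of other cells. KO dorsal striatum library 8 had 3901 CPM summed over 12 choroid plexus markers, against 122 to 256 CPM in the other 6 dorsal striatum libraries. Cortical neuron markers summed to 427 CPM in KO dorsal striatum library 7, against 90.5 to 185 CPM in the others of that region, and to 544 CPM in KO hypothalamus library 8, against 211 to 333 CPM. The targeted gene did not fall to 0 in KO libraries: *Hdc* had 54 and 66 counts in KO hypothalamus and 79, 111 and 94 in WT hypothalamus, while outside the hypothalamus it had 29 to 51 counts in KO and 0 to 6 in WT libraries. Counts cover the whole gene, so they do not show whether the deleted part was read, and the genotypes are those of the labels.

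The 3 C1q genes lie side by side on the minus strand of chromosome 4 (GRCm38), with C1qb at chr4:136880129-136886187, C1qc at chr4:136889804-136893065 and C1qa at chr4:136895917-136898803. Cx3cr1 lies at chr9:119901616-120069879, P2ry12 at chr3:59216272-59262871 and Tmem119 at chr5:113793729-113800516, all on the minus strand. Aif1 (chr17:35170991-35176068, minus strand) and Trem2 (chr17:48346401-48354147, plus strand) share a chromosome, and their positions, like the others, are those of GENCODE M21. Promoter windows from RefSeq (GRCm38.p6, 250 bases before to 50 bases after the annotated start of the gene) were at hand for 6 of the 9 genes: Cx3cr1, P2ry12, Aif1, Trem2, C1qb and C1qc. The windows were searched for GAGGAA on both strands, the core of the PU box bound by the myeloid transcription factor PU.1. The 6 letters were found once each in 4 of these 6 windows (Aif1, Trem2, C1qb and C1qc). They lay 7, 40, 30 and 193 bases before the RefSeq start of the gene, in that order. The windows of Cx3cr1 and P2ry12 did not hold them. Of 32851 windows of all genes, 28.3% held them on either strand. A match is a description of the sequence and was not tested as a binding site. RefSeq starts differ from the GENCODE M21 positions above for some genes, among them Aif1 and C1qc, so distances from those positions differ too. The window of Cx3cr1 (chr9:120068247-120068546) lies within that gene as placed above. The windows of C1qb (chr4:136886151-136886450), C1qc (chr4:136892865-136893164) and Trem2 (chr17:48346151-48346450) are shown because they hold the letters and belong to the complement genes and to the receptor with the lowest single values in KO hypothalamus, and that of P2ry12 (chr3:59262936-59263235) because that gene had the largest difference between striatum and hypothalamus. Each is written 5′ to 3′ on the strand of its gene, with GAGGAA, or its reverse complement TTCCTC, in capitals.
C1qb: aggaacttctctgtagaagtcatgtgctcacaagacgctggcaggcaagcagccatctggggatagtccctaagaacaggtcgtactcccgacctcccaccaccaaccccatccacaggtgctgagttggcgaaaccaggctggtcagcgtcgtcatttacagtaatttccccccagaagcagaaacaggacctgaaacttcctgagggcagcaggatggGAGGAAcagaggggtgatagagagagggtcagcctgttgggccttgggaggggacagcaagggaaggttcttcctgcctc
C1qc: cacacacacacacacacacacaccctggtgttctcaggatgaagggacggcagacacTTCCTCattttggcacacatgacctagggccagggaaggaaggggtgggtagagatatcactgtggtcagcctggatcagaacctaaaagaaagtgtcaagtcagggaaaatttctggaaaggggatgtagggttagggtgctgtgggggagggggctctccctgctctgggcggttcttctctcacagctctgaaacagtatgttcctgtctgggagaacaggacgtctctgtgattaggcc
Trem2: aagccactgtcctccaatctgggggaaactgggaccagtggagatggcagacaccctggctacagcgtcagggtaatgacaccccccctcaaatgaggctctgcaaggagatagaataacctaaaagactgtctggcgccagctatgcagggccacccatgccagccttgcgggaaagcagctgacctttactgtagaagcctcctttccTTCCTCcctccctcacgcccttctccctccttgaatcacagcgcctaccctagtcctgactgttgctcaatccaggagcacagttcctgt
P2ry12: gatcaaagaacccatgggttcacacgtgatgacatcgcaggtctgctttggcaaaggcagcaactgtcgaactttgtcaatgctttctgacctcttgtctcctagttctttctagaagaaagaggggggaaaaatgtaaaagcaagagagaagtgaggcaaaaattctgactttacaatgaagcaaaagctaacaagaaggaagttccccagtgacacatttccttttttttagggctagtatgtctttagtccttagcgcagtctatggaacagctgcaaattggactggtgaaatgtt

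All 9 genes had their higher region means in the striatum and their lowest in the hypothalamus. The motor cortex mean lay between, but for C1qa, C1qb, C1qc and Tmem119 the difference between motor cortex and hypothalamus was not called. The CPM values of the 9 genes, scaled by edgeR's TMM method, summed to 221 to 298 in the 7 dorsal striatum libraries, 238 to 308 in the 8 ventral striatum libraries, 148 to 196 in the 5 motor cortex libraries and 127 to 157 in the 8 hypothalamus libraries. The striatal libraries did not overlap those of the other 2 regions in this sum, while motor cortex and hypothalamus overlapped. Scaled per kilobase of exon, C1qb had the highest level in the dorsal striatum, with a mean of 34.7 CPM per kb ± 4.59 (SD, n = 7). Next came Csf1r with 13.5 ± 1.49, P2ry12 with 12.4 ± 1.6, Cx3cr1 with 11.3 ± 1.59 and C1qa with 10.2 ± 2.56 CPM per kb, neighbours whose levels differed by less than their SDs. Trem2 had the lowest level, 1.93 CPM per kb ± 0.288, and this value depends on the exons of all its annotated isoforms being added up.

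**Figure D1:**
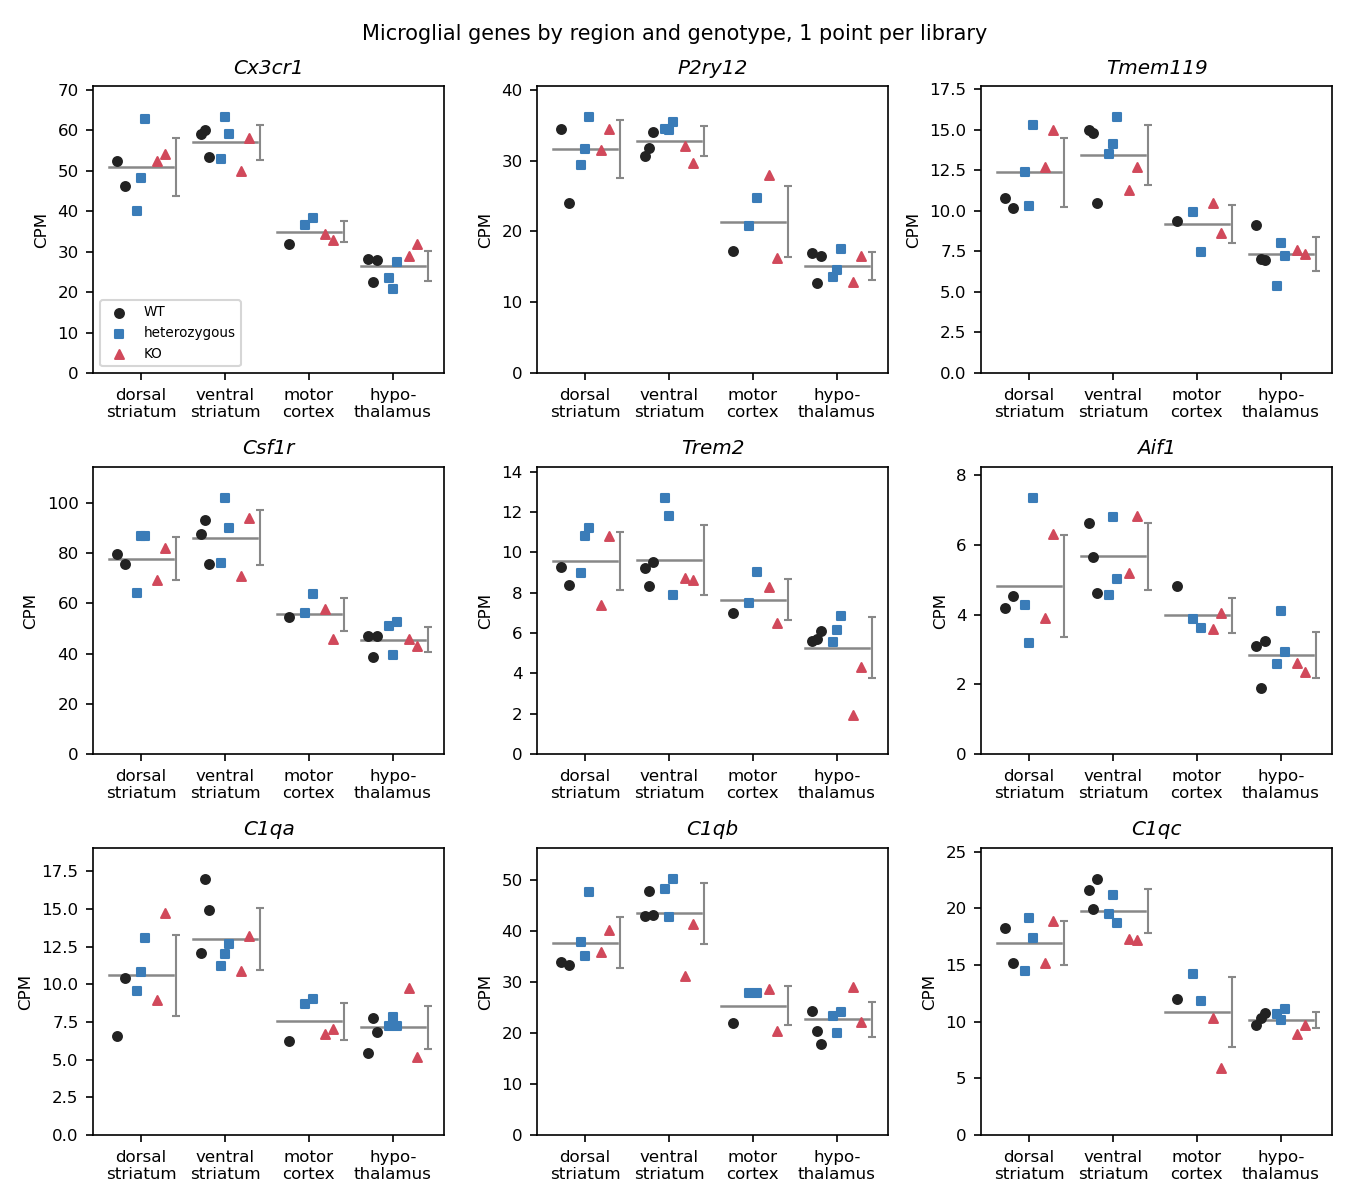
CPM of each gene in every library, by region (x axis), with WT as circles, heterozygous as squares and KO as triangles; grey lines are the mean over all libraries of the region and bars its SD. In each panel the hypothalamus has the lowest mean, and for Cx3cr1 its highest value (31.8 CPM) is below the lowest of the motor cortex (32 CPM).

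Cx3cr1, the fractalkine receptor, had a lowest, median and highest value of 40, 52.5 and 62.9 CPM in the dorsal striatum and of 50.1, 58.7 and 63.4 CPM in the ventral striatum. Motor cortex libraries had 32 CPM in WT, 36.7 and 38.3 in heterozygous and 34.5 and 33 in KO, and the hypothalamus had 20.7, 27.7 and 31.8 CPM. The 4 regions thus formed 3 levels, and the hypothalamus lay below every other library, with a log2 fold change of -0.93 ± 0.09 (SE) against the dorsal striatum (adjusted p = 3.98e-22, edgeR likelihood ratio test). P2ry12, a receptor for ADP that guides microglial processes, had 24, 31.6 and 36.2 CPM (lowest, median and highest) in the dorsal and 29.6, 33.1 and 35.4 CPM in the ventral striatum. Motor cortex values were 17.3 CPM in WT, 20.8 and 24.7 in heterozygous libraries and 28 and 16.2 in KO, and hypothalamus values were 12.7, 15.5 and 17.5 CPM. Its 2 KO motor cortex libraries were the highest and lowest of that region. It had the largest difference of the 9 genes between hypothalamus and dorsal striatum, -1.05 ± 0.11 (log2), which is 2.08-fold lower (edgeR adjusted p = 1.85e-20).

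Csf1r (chr18:61100598-61132149, plus strand), the receptor for the survival factors Csf1 and Il34, had the highest CPM of the 9 genes. Its values were 64.2, 79.7 and 86.9 CPM in the dorsal striatum, 70.9, 88.7 and 102 in the ventral striatum and 38.6, 46.4 and 52.6 in the hypothalamus. The motor cortex gave 54.6 CPM in WT, 56 and 63.8 in heterozygous libraries and 57.6 and 45.7 in KO. Hypothalamus libraries lay below all striatal ones and partly within the motor cortex range, and the difference from the dorsal striatum was -0.77 ± 0.10 (edgeR adjusted p = 2.49e-14). Of its exon bases, 15.1% also belong to exons of Hmgxb3 on the opposite strand, and the strand setting of the counting is not given in the sources used here. Tmem119, a surface protein that marks microglia apart from other macrophages, had 10.2, 12.4 and 15.3 CPM in the dorsal striatum, 10.5, 13.8 and 15.8 in the ventral striatum and 5.37, 7.26 and 9.1 in the hypothalamus. In the motor cortex it had 9.37 CPM in WT, 9.9 and 7.46 in heterozygous libraries and 10.5 and 8.65 in KO, which overlapped all other regions. Its difference between hypothalamus and dorsal striatum was -0.73 ± 0.13 (edgeR adjusted p = 1.03e-07).

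Trem2, a lipid-sensing receptor that signals through the adaptor Tyrobp, had 7.37, 9.29 and 11.2 CPM in the dorsal striatum and 7.9, 8.99 and 12.7 in the ventral striatum. Its motor cortex values were 6.97 CPM in WT, 7.48 and 9 in heterozygous libraries and 8.29 and 6.49 in KO, and its hypothalamus values 1.95, 5.65 and 6.82 CPM. The motor cortex overlapped both striatal regions for this gene, while the hypothalamus lay below both, at -0.95 ± 0.16 against the dorsal striatum (edgeR adjusted p = 4.93e-09). Aif1, which encodes the actin-binding protein Iba1 used to stain microglia, had 11 to 27 counts per library. It had 3.19, 4.28 and 7.35 CPM in the dorsal striatum, 4.55, 5.43 and 6.83 in the ventral striatum and 1.89, 2.76 and 4.1 in the hypothalamus. Motor cortex values were 4.81 CPM in WT, 3.86 and 3.6 in heterozygous libraries and 3.58 and 4.05 in KO. Its hypothalamus and dorsal striatum libraries overlapped, and the difference of -0.76 ± 0.21 was called (edgeR adjusted p = 0.000688).

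The C1q genes encode the 3 chains that assemble into one protein. C1qb had 33.3, 35.9 and 47.7 CPM in the dorsal striatum, 31.2, 43 and 50.3 in the ventral striatum and 17.9, 22.7 and 29 in the hypothalamus, with 21.9 CPM in WT, 27.8 and 27.8 in heterozygous and 28.7 and 20.5 in KO motor cortex. C1qc had 14.5, 17.4 and 19.1 CPM in the dorsal striatum, 17.2, 19.7 and 22.6 in the ventral striatum and 8.88, 10.2 and 11.1 in the hypothalamus, with 12 CPM in WT, 14.2 and 11.8 in heterozygous and 10.3 and 5.95 in KO motor cortex. For both genes every hypothalamus and motor cortex library lay below every dorsal striatum library. C1qa had 6.6, 10.4 and 14.7 CPM in the dorsal striatum, 10.9, 12.4 and 17 in the ventral striatum and 5.16, 7.22 and 9.75 in the hypothalamus, and 6.25 CPM in WT, 8.69 and 9 in heterozygous and 6.72 and 7.03 in KO motor cortex. Its dorsal striatum libraries overlapped both of the lower regions. The differences between hypothalamus and dorsal striatum were -0.69 ± 0.10 for C1qb (edgeR adjusted p = 1.8e-11), -0.74 ± 0.11 for C1qc (7.42e-11) and -0.53 ± 0.15 for C1qa (0.000874), the smallest of the 9 genes.

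The region comparisons averaged the 3 genotypes with equal weight and called a gene at an adjusted p under 0.05. In the hypothalamus all 9 genes were called lower than in the dorsal striatum, with a median log2 fold change of -0.76, and 25.5% of all tested genes were called lower there. With libraries scaled by size alone 7 of 9 were called, without Aif1 and C1qa, and the median was -0.40, while that of all genes was 0.41. All 9 were called without KO dorsal striatum library 7 (median -0.81) and without library 8 (median -0.69). Against the ventral striatum all 9 were again called lower, with a median of -0.95 and a background of 19.7%. In the motor cortex 7 of 9 were called lower than in the dorsal striatum (median -0.52, background 21.4%) and the same 7 genes were called lower than in the ventral striatum (median -0.66, background 22.2%). Trem2 and Aif1 were the 2 not called in either comparison: Trem2 had -0.30 ± 0.17 and -0.33 ± 0.17 (edgeR adjusted p = 0.135 and 0.0889), and Aif1 had -0.22 ± 0.23 and -0.47 ± 0.22 (adjusted p = 0.482 and 0.0719). The hypothalamus and striatal libraries serve in several of these comparisons, so the comparisons are not independent of each other. The median over all tested genes was between -0.04 and 0.05 in these comparisons.

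**Figure D2:**
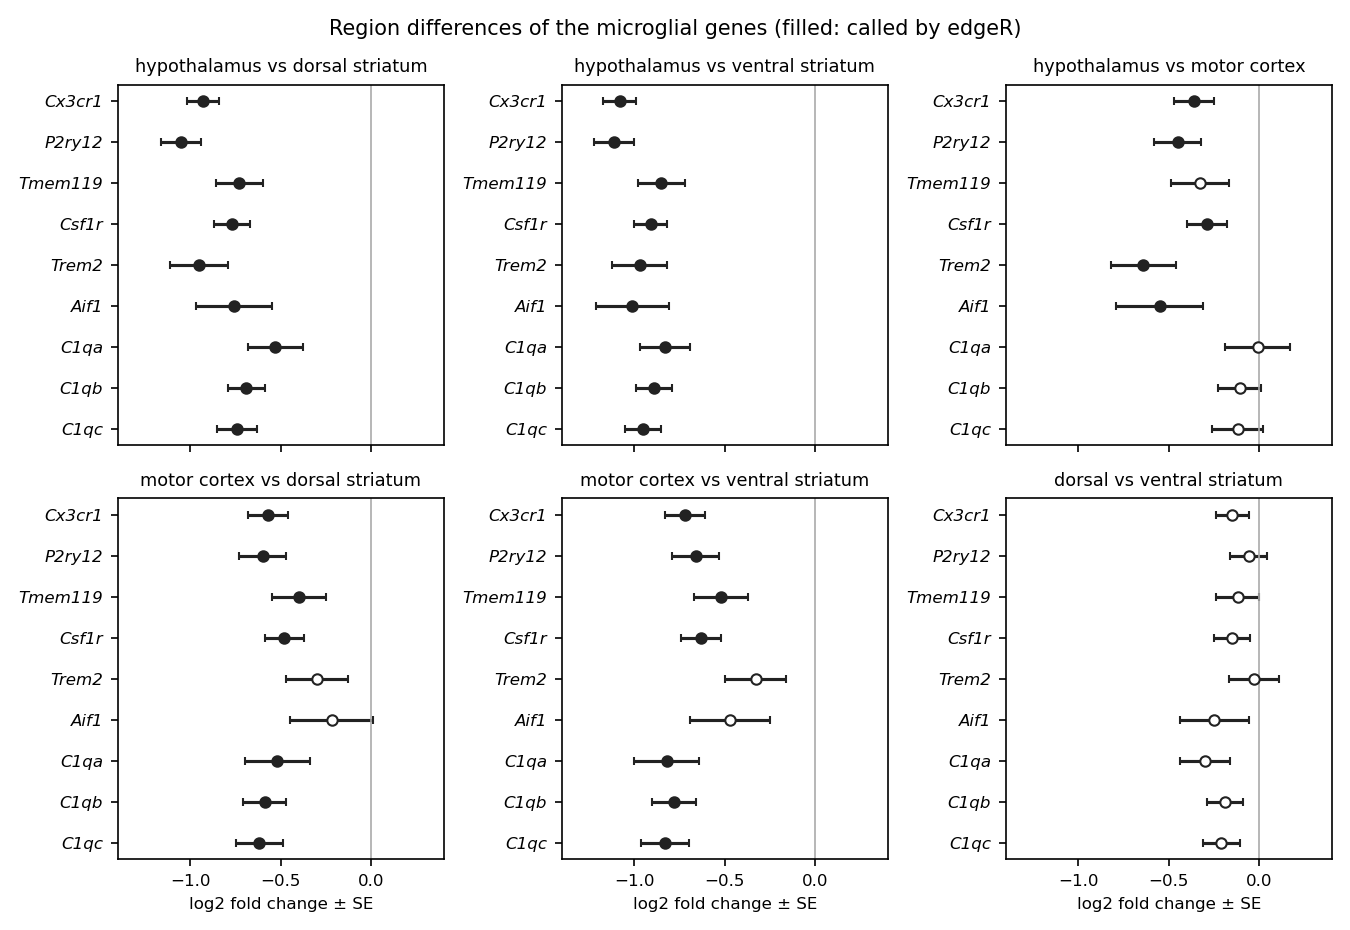
Log2 fold change with its standard error (x axis) of each gene in the 6 comparisons of regions, averaged over genotypes; filled points passed the threshold of edgeR's test. All 9 points are filled for the hypothalamus against either part of the striatum, and none for the dorsal against the ventral striatum.

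Between hypothalamus and motor cortex, 5 of 9 genes were called lower in the hypothalamus, where 22.9% of all genes were. Trem2 had -0.64 ± 0.18 (edgeR adjusted p = 0.00132), Aif1 -0.55 ± 0.24 (0.047), P2ry12 -0.45 ± 0.13 (0.0018), Cx3cr1 -0.36 ± 0.11 (0.00269) and Csf1r -0.29 ± 0.11 (0.0241). Tmem119, at -0.33 ± 0.16, was not called (edgeR adjusted p = 0.0641), nor were the C1q genes, at -0.01 ± 0.18 for C1qa, -0.11 ± 0.12 for C1qb and -0.12 ± 0.14 for C1qc (adjusted p = 0.964, 0.473 and 0.479). This comparison depended on the scaling: with libraries scaled by size alone none of the 9 was called and the median moved from -0.33 to -0.10, while the median of all genes moved to 0.28. The quasi-likelihood test, DESeq2 and the fit with no low-count filter each called 4. The count also rested on single libraries, with 3 genes called without KO hypothalamus library 8 and 2 without KO motor cortex library 7. Between the dorsal and ventral striatum none of the 9 genes was called by edgeR's likelihood ratio test, where 29.0% of all genes were called in either direction. All 9 were below 0 in the dorsal striatum, with a median of -0.15. C1qa (-0.30 ± 0.14), C1qb (-0.19 ± 0.10) and C1qc (-0.21 ± 0.10) had an unadjusted p under 0.05 by that test. So did 2812 of all 14979 genes in the lower and 2782 in the higher direction. Among the 9 the count was 3 by the quasi-likelihood test and 0 by DESeq2, and neither called one at an adjusted p under 0.05. With libraries scaled by size alone 5 of the 9 were called (median -0.31, that of all genes -0.17).

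Libraries were also compared without a model. All 9 genes were lower in every hypothalamus library than in every ventral striatum library, as were 7.18% of all genes. Against the dorsal striatum this held for 7 of 9, all but Aif1 and C1qa (background 13.1%). Motor cortex libraries lay below all dorsal striatum libraries for Cx3cr1, Csf1r, C1qb and C1qc, 4 of 9 (background 11.8%), and below all ventral striatum libraries for those 4, P2ry12 and C1qa, 6 of 9 (background 10.5%). Hypothalamus and motor cortex were apart for Cx3cr1 alone, 1 of 9 (background 15.4%).

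The hypothalamus was also compared within each genotype. Against the dorsal striatum, 6 genes were called in WT, 8 in heterozygous libraries and 8 in KO, with medians of -0.68, -0.73 and -0.87, and 18.9%, 19.2% and 13.9% of all genes were called lower in that order. Against the ventral striatum the calls were 9, 9 and 7, with medians of -1.06, -0.90 and -0.89 and backgrounds of 13.5%, 12.4% and 6.98%. Comparisons within 1 genotype rest on fewer libraries than the averaged one, so fewer calls there do not show a smaller difference.

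C1q was also set against the other 6 genes. C1q CPM, summed over its 3 genes, was between 58.8 and 78.2 in the dorsal striatum, 59.3 and 84.8 for ventral striatum, 33.5 and 50.7 in motor cortex and 35.5 and 47.7 in hypothalamus. Divided by the sum of the other 6 genes, this gave medians of 0.349, 0.376, 0.321 and 0.389 in the same order, and the ranges of the 4 regions overlapped. Within C1q, C1qb made up 50.5% to 62.7% of the CPM, C1qc 17.7% to 31.1% and C1qa 11.2% to 21% over the 28 libraries, with medians of C1qb between 56.4% and 57.7% in every region.

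The ligands of 2 of the receptors, and the adaptor of Trem2, were measured in the same libraries. Cx3cl1, which encodes the fractalkine that Cx3cr1 binds, had a mean of 553 CPM ± 34.4 (SD, n = 7) in the dorsal striatum, 370 ± 45.8 (n = 8) for ventral striatum, 491 ± 43.3 (n = 5) in motor cortex and 176 ± 14.8 (n = 8) in the hypothalamus. It was lower in the hypothalamus than in the dorsal striatum by 1.63 ± 0.07 on the log2 scale (edgeR adjusted p = 2.16e-103, log2 fold change -1.63), but unlike its receptor it was higher in the motor cortex than in the ventral striatum in every library. The 2 ligands of Csf1r went in opposite directions. Il34 was lower in the hypothalamus than in the dorsal striatum (-1.16 ± 0.11, adjusted p = 1.4e-23), with 11.1 to 14.4 CPM against 24 to 31.9 CPM. Csf1 was higher there (1.14 ± 0.12, adjusted p = 9.88e-24), with 20.2 to 25.8 CPM against 6.6 to 14.2 CPM. Tyrobp followed the receptors, with -0.84 ± 0.14 between hypothalamus and dorsal striatum (adjusted p = 1.6e-08) and -0.64 ± 0.17 between motor cortex and dorsal striatum (adjusted p = 0.000558).

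Most other genes of microglia tested were also called lower in the hypothalamus than in the dorsal striatum, and fewer of them in the motor cortex. Of 15 further homeostatic microglia genes, 13 were called lower and 1 higher in the hypothalamus than in the dorsal striatum, with a median of -0.79 against 0.04 for all genes, of which 25.5% were called lower and 30.7% higher. Siglech (-1.10 ± 0.13), Entpd1 (-1.08 ± 0.10), Mertk (-1.03 ± 0.10) and Selplg (-0.86 ± 0.09) were among the 13, and Lgmn, a lysosomal protease, was the 1 that rose (0.39 ± 0.08, edgeR adjusted p = 8.46e-07). Of 20 genes expressed in myeloid cells in general, 15 were called lower and none higher by the same test (median -0.69), led by the lysosomal Cd68 (-1.44 ± 0.14) and the integrin Itgam (-0.87 ± 0.11). In the motor cortex against the dorsal striatum, 8 of the 15 homeostatic genes and 10 of the 20 myeloid genes were called lower (background 21.4%). Coro1a, which encodes an actin-binding protein of leukocytes, was called higher there (1.19 ± 0.16), with 13.1 to 14.9 CPM in the motor cortex against 5.1 to 7.87 CPM in the dorsal striatum.

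Of 17 other complement genes tested, 5 were called higher and 3 lower in the hypothalamus than in the dorsal striatum, with a median of -0.07. The share called higher was near that of all genes (30.7%), and the share called lower was below it (25.5%). C3, the central protein of the cascade, rose (2.43 ± 0.47, edgeR adjusted p = 5.46e-10) at a low level of 1.89 to 3.9 CPM against 0.23 to 1.83 CPM. The C1 inhibitor gene Serping1 rose too (1.38 ± 0.28), and so did the complement regulator Cd55 (0.79 ± 0.21), while the receptor gene C3ar1, which microglia express, fell (-0.82 ± 0.18, adjusted p = 9.61e-06). Sez6 and Csmd1, genes of neuronal proteins with complement-like domains, fell by more than C3ar1 (-2.60 ± 0.08 and -1.05 ± 0.08). C4b was called lower in the motor cortex than in the dorsal striatum (-1.79 ± 0.30, adjusted p = 3.29e-09), with 0.541 to 3.58 CPM against 4.2 to 14.1 CPM.

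Of 13 tested genes of the state that microglia take on near amyloid plaques and damaged myelin, 7 were called higher and 2 lower in the hypothalamus than in the dorsal striatum (median 0.25), where 30.7% and 25.5% of all genes were. Igf1 rose most (2.21 ± 0.23, edgeR adjusted p = 4.34e-21) and Lpl fell most (-4.37 ± 0.21, adjusted p = 3.84e-109), and both are also expressed by other brain cells. Of 12 cytokine and mediator genes 3 passed the filter, and the summed CPM of all 12 was between 3.58 and 17.9 in every library, with Tnf at 0 in all dorsal striatum, motor cortex and hypothalamus libraries. Markers of macrophages at the borders of the brain had 1 gene called higher and 2 lower of 8, both shares below those of all genes. The largest of these differences was that of Cd163 (-3.14 ± 0.25), with 12.9 to 22.8 CPM in the dorsal striatum and 1.21 to 2.98 CPM in the hypothalamus, and 5 of the 8 were not called.

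**Figure D3:**
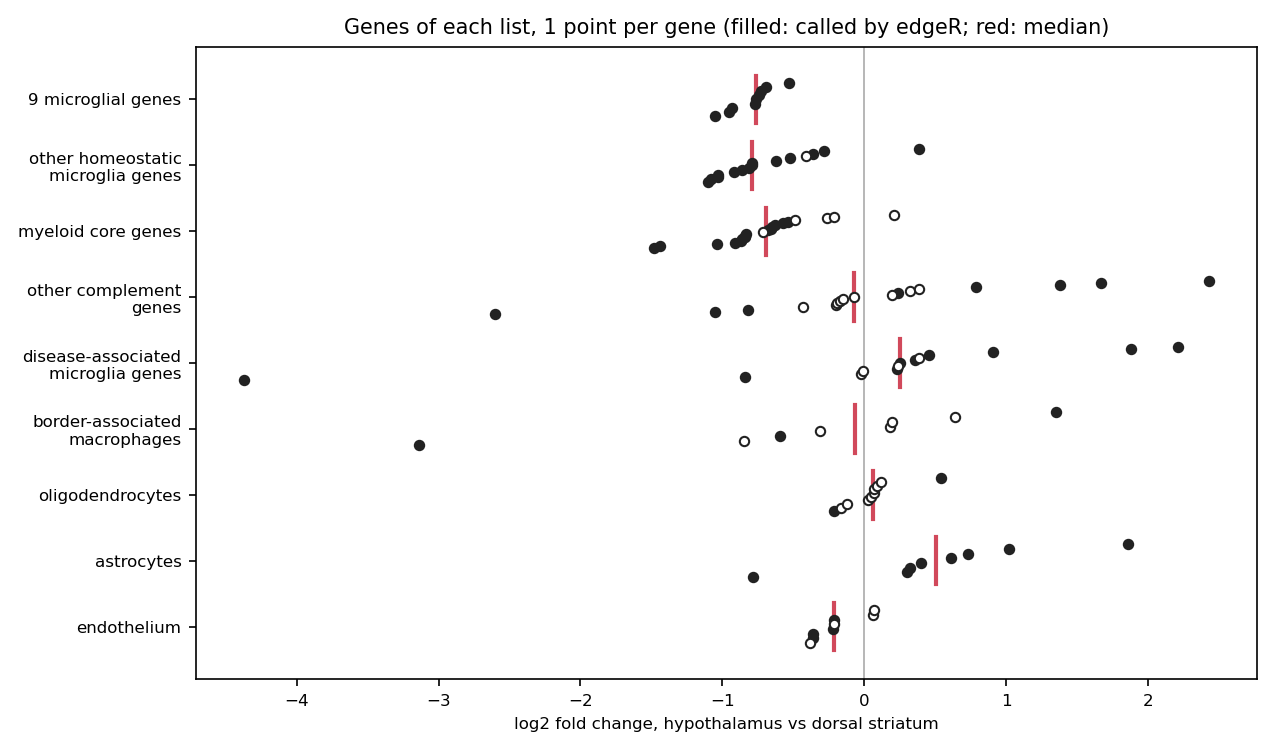
Log2 fold change between hypothalamus and dorsal striatum (x axis), averaged over genotypes, of the genes of 9 lists (rows), 1 point per gene; filled points passed the threshold of edgeR's test and red bars are medians. The 9 microglial genes, the other homeostatic genes and the myeloid genes have medians of -0.76, -0.79 and -0.69, while those of the other complement genes (-0.07) and of oligodendrocytes (0.06) lie near 0.

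Markers of blood leukocytes were at or near 0. The 8 monocyte and neutrophil markers summed to at most 2.45 CPM and the 5 lymphocyte markers listed to at most 1.05 CPM in any library, and none of them passed the filter. Genes of the other cells of the tissue differed between regions as well. In the hypothalamus against the dorsal striatum, 7 of 8 astrocyte markers were called higher (median 0.51, background 30.7%). Slc1a2, the most abundant of them, was called lower, and the summed markers were at 4030 to 5208 CPM in the hypothalamus against 6082 to 7330 CPM in the dorsal striatum. In the same comparison 4 of 8 endothelial markers were called lower (median -0.21, background 25.5%), and 1 of 10 oligodendrocyte markers was called in each direction (median 0.06). Oligodendrocyte markers summed to 3198 to 5528 CPM in the hypothalamus and 2868 to 5458 CPM in the dorsal striatum, and none was at 0. All 10 were called lower in the motor cortex than in the dorsal striatum (median -0.87, background 21.4%, summed 1484 to 2523 CPM), and all 7 pan-neuronal markers higher (median 1.10, background 22.0%, 8848 to 10447 CPM against 4213 to 4954 CPM). The part that these markers have in the lower microglial values was not tested.

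The genes whose pattern over the 28 libraries was most like that of the 9 were ranked by Pearson's r between log2 CPM and the mean of the 9 standardised genes, as a description. Itgam (r = 0.953), Selplg (0.944), Crym (0.929), Laptm5 (0.929), Trak2 (0.928), Mpeg1 (0.922), Ankrd63 (0.921), Dclk3 (0.919), Cd68 (0.914) and Pdzd2 (0.911) led the list. Itgam, Selplg, Laptm5, Mpeg1 and Cd68 are expressed by microglia and other myeloid cells, but genes known mainly from neurons, such as Crym, ranked among them. The points also share the regions, and the part of this in the ranking was not tested. Once the mean of each of the 12 groups of region and genotype was subtracted, the list was Mfng (0.91), Apoe (0.841), Rnf115 (0.794), Slc35e2 (0.789), Tgfbr1 (0.787), Hcn2 (0.784), Lgmn (0.777), Fam83b (0.764), Rdh5 (0.754) and Laptm5 (0.752), and Laptm5 was the 1 gene on both. Against the mean of the other 8 genes, each of the 9 had r between 0.731 (Trem2) and 0.951 (Csf1r) over all libraries, and between 0.057 (C1qa) and 0.697 (Cx3cr1) within groups.

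The study set out to compare KO with WT mice, and here none of the 9 genes was called in any region by edgeR's likelihood ratio test. In the dorsal striatum 0 of 9 were called (background 0.387%), with 0 at an unadjusted p under 0.05, and 8 of 9 were above 0 with a median log2 fold change of 0.18. The largest values were 0.43 ± 0.28 for C1qa, with 6.6 and 10.4 CPM in WT, 9.58, 10.8 and 13.1 in heterozygous libraries and 8.98 and 14.7 in KO, and 0.39 ± 0.24 for Tmem119, with 10.8 and 10.2 CPM in WT, 12.4, 10.3 and 15.3 in heterozygous libraries and 12.7 and 15 in KO (edgeR adjusted p = 0.751 and 0.735). Standard errors of the 9 genes were 0.17 to 0.38 in this comparison, as large as most of the differences, so the lack of a call does not show that the genotypes were alike. WT and KO overlapped for C1qa and did not for Tmem119. The median rested on KO dorsal striatum library 8 and WT dorsal striatum library 2: without the former it was 0.04 and without the latter 0.03. In KO dorsal striatum library 8 the choroid plexus markers were raised, and 7 of 9 of them tested were called higher between KO and WT there. So were 3 of 10 oligodendrocyte markers (median 0.70), with summed values of 4270 and 5458 CPM in KO against 3337 and 2868 CPM in WT. With libraries scaled by size alone the median of the 9 was 0.46 and that of all genes 0.28. In that edgeR fit 5 of the 9 had an unadjusted p under 0.05, with none called (smallest adjusted p = 0.104). That count was not set against the share of all genes under the same scaling.

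In the ventral striatum 0 of 9 were called (background 0.0801%) and none had an unadjusted p under 0.05, while 8 of 9 were below 0 with a median of -0.09. The C1q genes had the lowest values. C1qb had 43, 47.9 and 43.1 CPM in WT, 48.2, 42.7 and 50.3 in heterozygous libraries and 31.2 and 41.5 in KO, a difference of -0.30 ± 0.17. C1qc had 21.6, 19.9 and 22.6 CPM in WT, 19.5, 21.2 and 18.7 in heterozygous libraries and 17.3 and 17.2 in KO, a difference of -0.31 ± 0.17. Both were lower in each KO library than in each WT library and neither was called (edgeR adjusted p = 0.942 for both). In the hypothalamus 0 of 9 were called (background 0.167%), with a median of -0.04 and 4 of 9 above 0. In the motor cortex, with 1 WT library, 0 of 9 were called (background 0.0334%) and the median was 0.08.

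**Figure D4:**
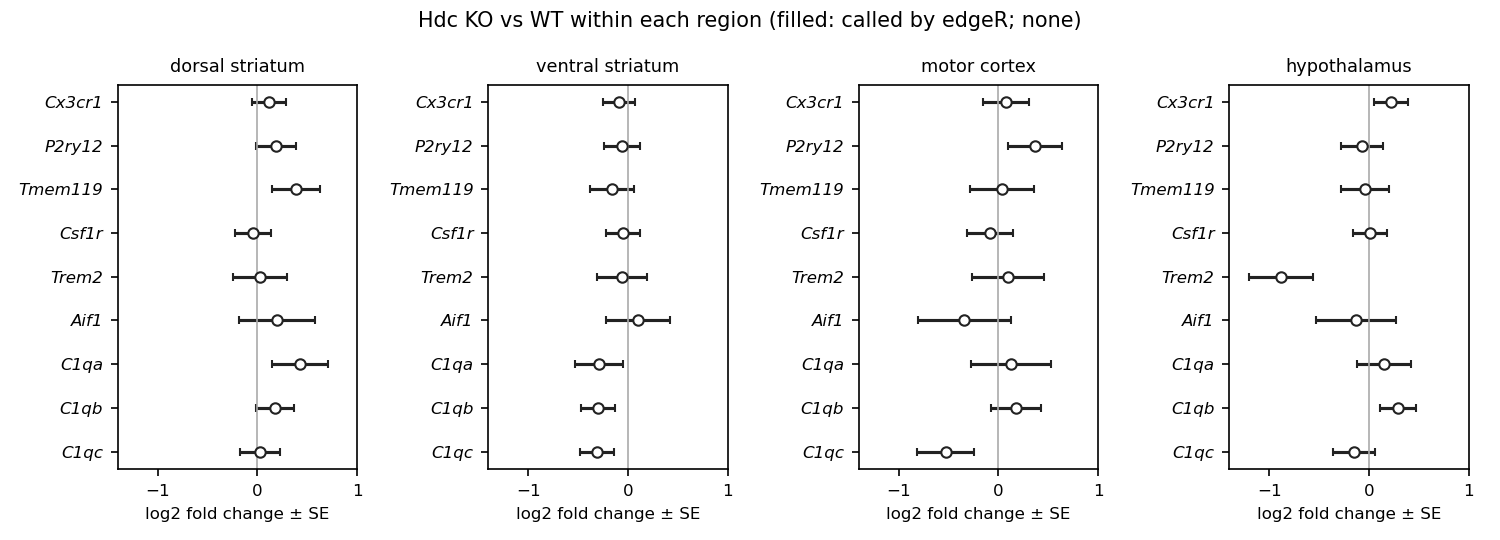
Log2 fold change of KO against WT with its standard error (x axis) for each gene in the 4 regions; open points did not pass the threshold of edgeR's test, and no point is filled. Trem2 in the hypothalamus, at -0.88, lies furthest from 0.

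Between KO and WT, 6.01% of all genes had an unadjusted p under 0.05 in the hypothalamus, and 4.33% to 7.94% in the other regions. Of the 9 genes only Trem2 had such a p, in the hypothalamus alone. Its values were 5.62, 5.68 and 6.09 CPM in WT, 5.56, 6.14 and 6.82 in heterozygous libraries and 1.95 and 4.3 in KO, from 9 and 20 counts in KO and 29 to 34 counts in WT. Both KO libraries lay below all others of the region. The difference was -0.88 ± 0.32 (unadjusted p = 0.00435, adjusted p = 0.469, edgeR likelihood ratio test across all genes). Without KO hypothalamus library 7, the lowest, it was -0.47 (unadjusted p = 0.204, edgeR), and without KO hypothalamus library 8 it was -1.56. The quasi-likelihood test gave an adjusted p of 0.704 and DESeq2 one of 1. In the dorsal striatum Trem2 had 9.29 and 8.39 CPM in WT and 7.37 and 10.8 in KO libraries (0.03 ± 0.27), in the ventral striatum 9.23, 8.35 and 9.5 CPM in WT and 8.74 and 8.6 in KO libraries (-0.06 ± 0.25), and in the motor cortex 6.97 CPM in WT and 8.29 and 6.49 in KO libraries. KO and WT libraries overlapped in each of these 3 regions. Tyrobp, its adaptor, had 7.06 to 8.78 CPM in WT and 9.1 to 11 CPM in KO hypothalamus, the opposite order.

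Without a model, KO and WT libraries did not overlap for 3 of 9 genes in the dorsal striatum (Cx3cr1, Tmem119 and C1qb, higher in KO), where this held for 37.1% of all genes, Cx3cr1 meeting at 52.5 CPM when rounded. It held for 2 of 9 in the ventral striatum (C1qb and C1qc, background 17.2%) and for 3 of 9 in the hypothalamus (Cx3cr1 higher, Trem2 and C1qc lower, background 21.3%). No gene in these counts was called. Averaged over the 3 regions with at least 2 libraries of each genotype, 0 of 9 were called (background 0.527%) and the median was 0.06, with Trem2 at -0.30 ± 0.16 (edgeR adjusted p = 0.505).

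The heterozygous genotype was also set against WT. None of the 9 genes was called by edgeR's likelihood ratio test in the dorsal striatum (background 0.0868%), the ventral striatum (0.0534%), the hypothalamus (0.0935%) or the motor cortex (0.0134%), and none had an unadjusted p under 0.05. Medians were 0.16, 0.06, 0.09 and 0.23 in that order, and in the dorsal striatum all 9 were above 0. These comparisons use the same WT libraries as KO minus WT and are not independent of it. Between KO and heterozygous motor cortex, the 1 comparison there with 2 libraries on each side, 0 of 9 were called (background 0.00668%). C1qc alone had an unadjusted p under 0.05 in it, with 10.3 and 5.95 CPM in KO and 14.2 and 11.8 CPM in heterozygous libraries (-0.65 ± 0.24, edgeR adjusted p = 0.873). Of all 14979 genes, 306 were higher and 319 lower at such a p. The difference of C1qc was -0.35 without KO motor cortex library 8 and -1.13 without library 7.

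Whether KO minus WT differed between regions was tested directly. Between dorsal and ventral striatum 0 of 9 were called (background 0.00668%), with all 9 differences above 0 and a median of 0.25. C1qa had the largest, 0.72 ± 0.37 (edgeR unadjusted p = 0.0489, adjusted p = 1). At an unadjusted p under 0.05, 409 of all 14979 genes were higher and 243 lower. Between dorsal striatum and hypothalamus 0 of 9 were called (background 0.154%, median 0.25), and Trem2 had 0.91 ± 0.42 (adjusted p = 0.665). Between ventral striatum and hypothalamus 0 of 9 were called (background 0.100%, median -0.11), with Trem2 at 0.83 ± 0.41 and C1qb at -0.59 ± 0.24 (adjusted p = 1 and 0.899). The quasi-likelihood test and DESeq2 called none of the 9 genes in any of these comparisons of genotypes. DESeq2 gave no adjusted p for any of the 9 in heterozygous minus WT hypothalamus, so it could call none there. In several others it gave one for only some of the 9, such as 4 in heterozygous minus WT dorsal striatum.

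Genes of the related lists were compared between KO and WT as well. Of 83 tested genes of the other homeostatic, myeloid, ligand, complement, disease-associated, cytokine and border macrophage lists, 0 were called in any of the 4 regions by edgeR's likelihood ratio test. At an unadjusted p under 0.05 there were 11 in the dorsal striatum, 4 in the ventral striatum, 11 in the hypothalamus and 7 in the motor cortex, against 7.94%, 5.40%, 6.01% and 4.33% of all genes, and the lists were not tested against that background. The smallest adjusted p of the 83 was that of Csf1 in the dorsal striatum (0.84 ± 0.26, edgeR adjusted p = 0.12), which was not called. Csf1 had 6.6 to 8.39 CPM in WT, 9.81 to 11.6 in heterozygous and 13.1 to 14.2 in KO dorsal striatum. In the other regions its KO minus WT difference was 0.06 ± 0.20 (ventral striatum), -0.17 ± 0.16 (hypothalamus) and 0.28 ± 0.28 (motor cortex). Averaged over 3 regions, 1 of 13 disease-associated genes was called, Cd9, which rose (0.72 ± 0.19, adjusted p = 0.0403) and which oligodendrocytes also express.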

How the data were processed

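RNA from frozen, dissected tissue was amplified from 5 ng with the Ovation V2 system and sequenced as single-end reads of 50 bases. The deposited values are raw counts per gene: per the labels and the methods, the authors trimmed reads with Trimmomatic (0.32), removed ribosomal reads with Bowtie2 (2.2.3), aligned the rest to GRCm38 with STAR (2.3.1z8) and counted uniquely mapped reads on exons with HTSeq (0.6.1p1). The strand setting is not given in the sources used here. Reads assigned to no gene were left out.

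Genes above 1 CPM in at least 2 of 28 libraries (14979) were fitted in R (4.3.3) with edgeR (4.0.16, glmFit and glmLRT, TMM scaling), with a mean for each of 12 groups of region and genotype, and p-values were adjusted by the Benjamini-Hochberg method over all of them. A gene was called at an adjusted p under 0.05. Log2 CPM for likeness used a prior count of 2. Alternatives were the quasi-likelihood test, DESeq2 (1.42.0), scaling by library size alone, no low-count filter, the compared regions alone, single genotypes, a block on the library digit and each library left out in turn. The test was tested on simulated data of known change. Groups came from the labels. Libraries that share a digit did not deviate together (mean correlation 0.00697 over 34 pairs). This cannot show whether they came from the same mouse, and the main fit did not allow for a shared mouse. No pair of libraries of 1 group agreed within sampling noise (chi-square per degree of freedom 1.78 to 13.3). Named genes were the 9 genes, the ligands Cx3cl1, Csf1 and Il34, Tyrobp, *Hdc*, the 10 most alike in each of 2 rankings, and up to 4 called genes of each further list by smallest p. A gene that this rule would name is not reported here. Tnf and Slc1a2 were named after their values were seen. The genes, lists and tests were chosen with earlier results of these data known.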

Additional observations from a re-analysis of the deposited data

Results flagged for a closer look

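C1qb in the striatum had KO and WT libraries on opposite sides in its 2 parts. In the dorsal striatum it had 35.9 and 40.2 CPM in KO and 33.9 and 33.3 CPM in WT libraries, and in the ventral striatum 31.2 and 41.5 CPM in KO and 43, 47.9 and 43.1 CPM in WT libraries. KO and WT libraries did not overlap for 37.1% of all genes in the dorsal and 17.2% in the ventral striatum. The difference between the 2 KO minus WT values was 0.48 ± 0.25 on the log2 scale and was not called (edgeR unadjusted p = 0.0565, adjusted p = 1). It was 0.28 without KO ventral striatum library 7 and 0.69 without KO ventral striatum library 8.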

How the results depend on the processing

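With libraries scaled by size alone, in place of TMM, the median of all genes moved to 0.41 between hypothalamus and dorsal striatum and to -0.17 between dorsal and ventral striatum. Under it the members' median was -0.40 (7 called) for hypothalamus minus dorsal striatum, -0.74 for hypothalamus minus ventral striatum, -0.10 (0 called) for hypothalamus minus motor cortex, -0.31 (5 called) for dorsal minus ventral striatum, 0.46 for KO minus WT and 0.35 for heterozygous minus WT in the dorsal striatum, -0.02 for KO minus heterozygous motor cortex, and 0.51 and 0.63 for the difference of KO minus WT between the dorsal striatum and the ventral striatum or hypothalamus. In WT libraries alone, where the motor cortex has 1 library that is assumed to vary like the other groups, dorsal minus ventral striatum had a median of -0.35 with 1 called, motor cortex minus ventral striatum a median of -0.83, motor cortex minus dorsal striatum 2 called and hypothalamus minus motor cortex 0 called. In heterozygous libraries alone the last 2 had 3 and 2 called, and in KO libraries alone hypothalamus minus motor cortex had 2 called and dorsal minus ventral striatum a median of -0.02.

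Whether libraries that share a digit came from the same mouse is not known. With the digit as a replicate block, 3 genes were called between hypothalamus and motor cortex in place of 5, and no other count of members called changed by more than 1.5 times.

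With each library left out in turn, 0 to 2 genes were called between dorsal and ventral striatum, with 2 without heterozygous dorsal striatum library 6 and 1 without KO dorsal striatum library 8, KO ventral striatum library 7 or WT dorsal striatum library 2. Between hypothalamus and motor cortex 2 to 6 were called. Medians ranged from 0.03 to 0.26 for KO minus WT in the dorsal striatum, from -0.24 (without KO ventral striatum library 8) to -0.08 in the ventral striatum and from -0.10 (without KO motor cortex library 7) to 0.12 in the motor cortex. They ranged from -0.34 (without KO motor cortex library 7) to -0.06 for KO minus heterozygous motor cortex, from 0.17 to 0.46 (without WT dorsal striatum library 1) for the difference between dorsal and ventral striatum, and from -0.03 (without KO dorsal striatum library 8) to 0.34 for that between dorsal striatum and hypothalamus. Genes called between regions kept their direction in all of these settings. Counted once per gene, comparison and setting, the call was kept in 285 cases and lost in 48 under settings that left out no single library (those with 1 WT motor cortex library included), and was kept in 481 and lost in 19 with 1 library left out. The cause of these moves was not tested. Depth limits Aif1 (11 to 27 counts per library) and Trem2 (9 to 67).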
